A study of Mus musculus with 8 samples.

Results

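The genes described here are the neighbours of Kdm6b, the gene inactivated in this study, on mouse chromosome 11. A gene was taken where its start lay between positions 68400000 and 70400000 of the deposited XY table (GRCm38), a window of about 1 Mb on either side of Kdm6b, and where its mean normalized count over the 4 libraries of a sex reached 10 in XX or in XY. Kdm6b itself, its antisense transcript Kdm6bos and 1 ribosomal protein gene were left out. Of 128 genes that start in the window, among 48440 in the tables, 80 were kept, 25 on the side of lower coordinates and 55 on the side of higher coordinates. They comprised 74 protein-coding genes, 2 antisense transcripts, 1 small Cajal body RNA, 1 snoRNA, 1 miRNA and 1 processed pseudogene. Another 45 genes of the window stayed under the minimum, 13 of them at 0 in every library and 18 of them protein coding. The members just inside it were Gm22442, with means of 5.97 in XX and 10.23 in XY, and Sox15, with 10.16 and 10.5. Just outside were Slc35g3, with 9.19 and 8.94, and Gucy2e, with 7.0 and 9.23.

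The study sequenced poly(A) RNA of embryonic mouse gonads at day 11.5, as XY gonads begin to turn into testes. Its 4 groups were XY wild type, XY Kdm6b-null, XX wild type and XX Kdm6b-null, untreated, with 2 libraries in each. Each library pooled 2 pairs of gonads. The strain, the part of Kdm6b that the allele removes and the litters behind the pools are not given in the sources used for this text, so p-values measure only the spread between these pools. The labels name pre-Sertoli cells for XY and pre-granulosa cells for XX but describe no sort, and markers of gonadal somatic cells and of other cells were all found. Gata4 ranged from 1018 to 2632 normalized counts over the 8 libraries, and the summed level of 10 endothelial markers ranged from 12870 to 21760. In such tissue RNA, fewer cells of a type and less RNA per cell cannot be told apart.

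KDM6B removes methyl groups from lysine 27 of histone H3, a mark that Polycomb proteins place on silent genes, often at promoters rich in CpG. Many of its neighbours here are housekeeping genes. They include Polr2a, the largest subunit of RNA polymerase II, Eif4a1 and Eif5a, which act in translation, and Trp53, which encodes the tumour suppressor p53. Others are restricted to particular cells, such as Cd68 in macrophages, Bcl6b and Arhgef15 in endothelium, Dlg4 and Nlgn2 at synapses, and Shbg, which encodes a protein that binds sex steroids. A null allele sits among these genes, so their transcripts were set against wild type by distance from the mutated gene.

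Kdm6b (ENSMUSG00000018476.7, chromosome 11, 69398508 to 69413675, minus strand) gave the reference for the size of a change at the locus. Its XY libraries read 3399 and 3181 normalized counts for wild type against 1238 and 1037 for the null, and its XX libraries 2218 and 2796 against 1249 and 1125. All 4 null libraries lay below all 4 wild type libraries, at 34.6% of the wild type mean in XY and 47.4% in XX. In a fit of both sexes with limma, sex and genotype as terms, the log2 fold change of null over wild type was -1.30 (SE 0.12, adjusted p = 0.022). Kdm6bos, inside the Kdm6b gene on the other strand, read 27.7 and 25.92 normalized counts for XY wild type, 24.25 and 19.22 for XX wild type, and 0 for each null library (limma adjusted p = 0.0066). These were the only calls at 0.05 among 17282 genes. When 1 library at a time was left out, the limma adjusted p of Kdm6b ranged from 0.0067 to 0.14 and stayed under 0.05 only without XX wild type replicate 1, while its log2 fold change stayed between -1.42 and -1.21. The limma adjusted p of Kdm6bos ranged from 0.016 to 0.13 and stayed under 0.05 except without XY wild type replicate 1 or without XY wild type replicate 2. With a replicate block the adjusted p was 0.083 for both by limma, and with no variance trend that of Kdm6b was 0.11.

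None of the 80 neighbours passed that threshold in the fit of both sexes, where the background of calls was 2 of 17282 genes, or 0.0116%. The smallest limma adjusted p of a neighbour was 0.26, for Shbg. Without adjustment 11 of 80 neighbours had p under 0.05, or 13.8%, against 12.1% of all genes tested. The median log2 fold change of the neighbours was 0.02 and the median size, regardless of sign, was 0.15. Over all genes tested the same medians were 0.01 and 0.13. The 95% interval of the change lay within 1.5-fold of no change for 52 of 80 neighbours (65.0%, all genes 63.4%) and within 2-fold for 67 (83.8%, all genes 84.0%). For the remaining 13 neighbours the libraries could not bound the change within 2-fold.

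**Figure D1:**
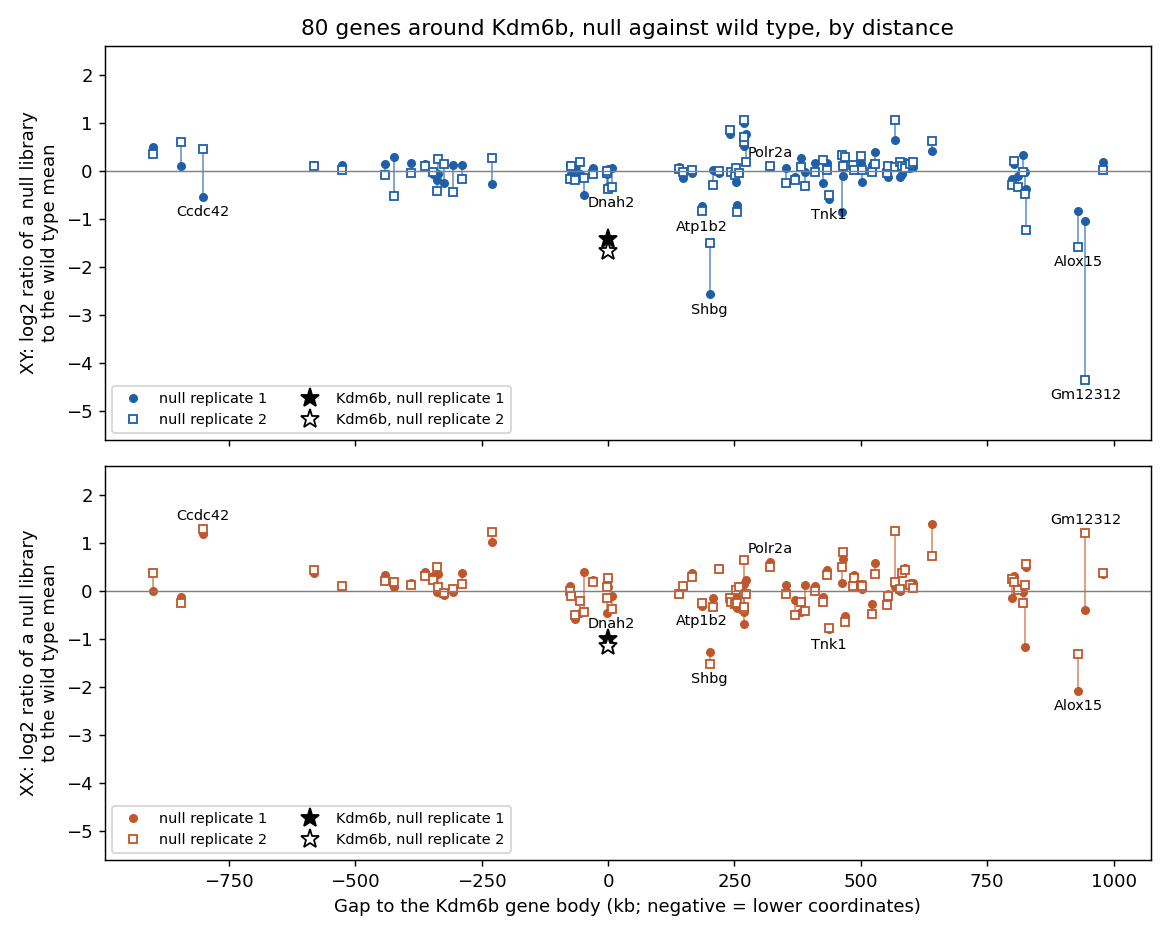
Log2 ratio of each null library to the mean of the 2 wild type libraries of its sex, on the log2(normalized count + 1) scale, for 80 neighbours, against the gap to the Kdm6b gene body in kb (XY above, XX below). Lines join the 2 null libraries of a gene and stars mark Kdm6b; Shbg, Atp1b2 and Tnk1 lie below 0 in all 4 null libraries, while the genes next to the stars lie near 0.

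The genes next to Kdm6b showed no change of the size seen in Kdm6b itself. Tmem88, which encodes an inhibitor of Wnt signalling that binds Dishevelled, lies 0.27 kb beyond one end of Kdm6b. Its XY libraries read 226.5 and 205.4 normalized counts for wild type against 221.4 and 166.7 for the null, and its XX libraries 181.4 and 212.4 against 208.3 and 235.4. The groups overlapped in both sexes and the log2 fold change was 0.00 (SE 0.13, 95% interval -0.30 to 0.31, limma adjusted p = 0.99). On the other side the nearest member is Dnah2, a heavy chain of the dynein that moves cilia, at 7.1 kb. Only its 3′ end lies that near, and its start is 135.4 kb from that of Kdm6b. Dnah2 is also the only member within 100 kb on that side. Its XY libraries read 100.9 and 94.71 for wild type against 102.4 and 77.2 for the null, and its XX libraries 119.3 and 86.99 against 94.67 and 78.8, again with overlap in both sexes. The fitted change was -0.19 (SE 0.16, limma adjusted p = 0.66).

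Naa38, a subunit of an N-terminal acetyltransferase, and Cyb5d1 start head to head and share 145 bases. Naa38, 1.8 kb from Kdm6b, read 408.6 and 433.7 for XY wild type against 335.5 and 420 for the null, and 541.4 and 411.7 against 342.8 and 424.3 in XX. Its change on the log2 scale was -0.24 (SE 0.12, limma adjusted p = 0.47). Cyb5d1 had 0.02 (SE 0.09). Chd3, a chromatin remodeller of the NuRD complex and the most abundant gene within 100 kb, read 13590 and 13740 normalized counts for XY wild type against 14270 and 13150 for the null. The XX libraries read 11410 and 12720 against 14180 and 13700, so the groups were apart in XX and overlapped in XY. Gm22442, a small Cajal body RNA inside Chd3, had only 4.041 to 11.87 normalized counts over the 8 libraries. Its log2 fold change was -0.17 (SE 0.33) in the fit of both sexes, on a scale that understates changes of low genes. The XX mean of Gm22442 was below the minimum, so it was not tested in XX alone. Reads of overlapping genes are uncertain here, and 30 of the 80 members overlap another gene. For the 24 that overlap a gene on the opposite strand, the library kit marks strand, but no source used here says whether the counting used it. Where the overlap is on the same strand, as for Gm22442 and Chd3, strand would not separate the reads.

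All 10 members within 100 kb, 9 of them on the lower side, had log2 fold changes between -0.30 and 0.11 in the fit of both sexes, with a median of -0.08. In that fit the lowest bound of their 95% intervals was -0.92, for Gm22442, against the log2 fold change of -1.30 in Kdm6b. The lowest value, -0.30 (SE 0.18), belonged to Kcnab3, a potassium channel subunit, whose XX libraries read 56.27 and 55.63 for wild type against 36.87 and 39.4 for the null and whose XY libraries overlapped. For XX alone the 95% interval of Kcnab3 ran from -1.19 to 0.10. That range includes the log2 fold change of -1.07 that Kdm6b had in XX. None of the 10 kept its null libraries apart from wild type in 1 direction in both sexes. The median size was 0.12 within 100 kb, 0.19 for 19 members at 100 to 300 kb, 0.13 for 37 at 300 to 600 kb, and 0.22 for 14 farther out. On the rest of chromosome 11 it was 0.12 for 77 genes at 1 to 5 Mb, 0.14 for 182 at 5 to 10 Mb and 0.12 for 1016 beyond, and on other chromosomes 0.13. The median size of change was thus no larger next to Kdm6b than far from it. Across the 80 neighbours, which share the same 8 libraries, the size of change and the gap to Kdm6b had Pearson's r = 0.22 and Spearman's rho = 0.17. Without XX Kdm6b-null replicate 1 the median size within 100 kb was 0.06, and without XX wild type replicate 1 it was 0.07.

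**Figure D2:**
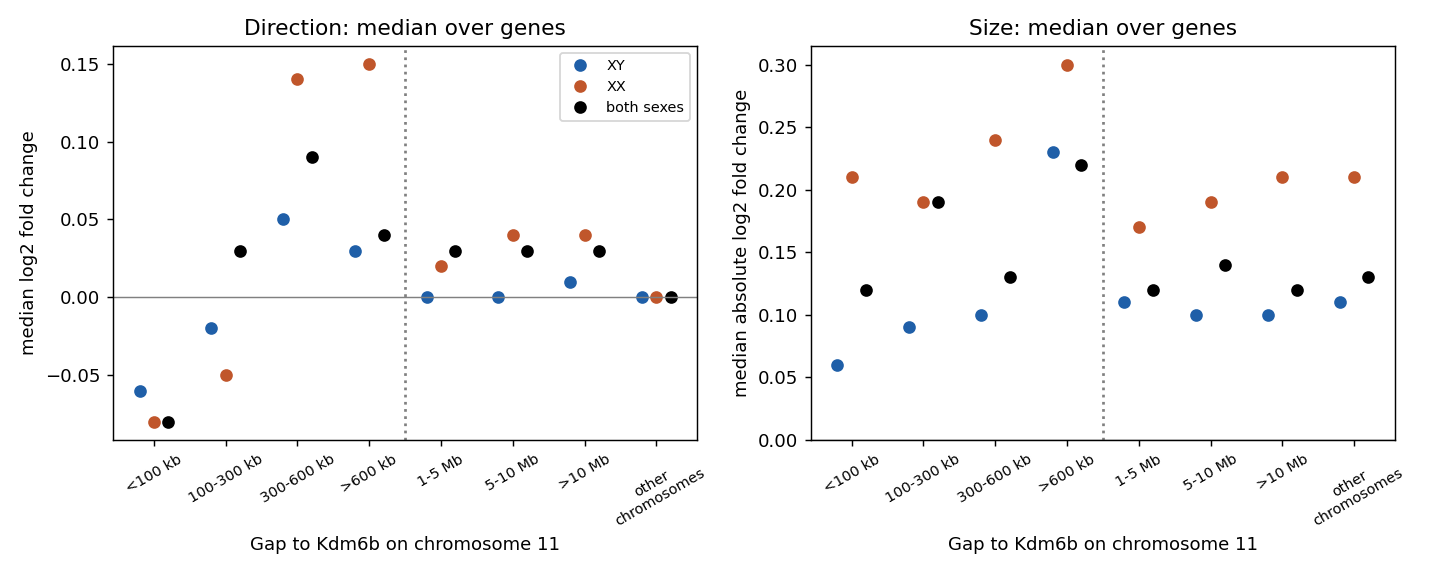
Median log2 fold change (left) and median absolute log2 fold change (right) of null over wild type by gap to Kdm6b, for XY, XX and the fit of both sexes; the dotted line separates the 80 neighbours from genes farther away. The median size in the fit of both sexes is 0.12 within 100 kb and 0.13 on other chromosomes.

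Members were next sorted by whether both null libraries lay on 1 side of both wild type libraries, in the same direction in XY and in XX. This held for 15 of 80 members (18.8%), against 1952 of 17282 genes (11.3%). Both null libraries were higher in both sexes for 10 members (12.5%, all genes 6.19%) and lower for 5 (6.25%, all genes 5.1%). The lower members were Atp1b2, Shbg, Cd68, the snoRNA Gm25835 and Tnk1, and 4 of these were among the 29 members within 300 kb. All 10 higher members were among the 51 farther out, 9 at 300 to 600 kb and Pelp1 at 979.2 kb. By distance between start sites, 7 of the higher members lay at 300 to 600 kb and 3 beyond. Whether the direction varied with distance was not tested. In 3 further members, or 3.75% against 5.2% of all genes, the groups were apart in opposite directions in the sexes.

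Because the Polycomb mark that KDM6B erases favours promoters rich in CpG, the promoters of members from both sets are shown. RefSeq promoter windows (GRCm38.p6) matched 50 of the 80 members by symbol, and the 250 bases before the start site nearest to the deposited one were used. The first pair below lay lower in the null libraries of both sexes and the other 3 lay higher. Capitals mark CG, and sequences run 5′ to 3′ on the strand of the gene.
Shbg, chr11:69617906-69618155, minus strand: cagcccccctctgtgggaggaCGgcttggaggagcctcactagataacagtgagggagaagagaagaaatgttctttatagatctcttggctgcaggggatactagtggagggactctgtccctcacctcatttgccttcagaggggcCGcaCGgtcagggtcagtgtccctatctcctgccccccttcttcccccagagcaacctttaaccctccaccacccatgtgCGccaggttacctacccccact
Tnk1, chr11:69858731-69858980, minus strand: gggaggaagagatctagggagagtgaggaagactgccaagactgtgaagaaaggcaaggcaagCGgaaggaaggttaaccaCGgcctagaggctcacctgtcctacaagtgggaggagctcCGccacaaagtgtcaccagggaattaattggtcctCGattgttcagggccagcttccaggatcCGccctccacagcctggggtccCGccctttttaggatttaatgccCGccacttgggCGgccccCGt
Polr2a, chr11:69758634-69758883, minus strand: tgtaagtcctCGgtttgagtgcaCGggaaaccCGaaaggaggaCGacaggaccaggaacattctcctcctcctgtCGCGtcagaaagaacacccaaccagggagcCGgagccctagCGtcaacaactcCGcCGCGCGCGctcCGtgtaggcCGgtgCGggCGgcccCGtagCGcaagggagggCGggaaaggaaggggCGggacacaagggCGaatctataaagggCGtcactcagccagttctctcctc
Dvl2, chr11:70000342-70000591, plus strand: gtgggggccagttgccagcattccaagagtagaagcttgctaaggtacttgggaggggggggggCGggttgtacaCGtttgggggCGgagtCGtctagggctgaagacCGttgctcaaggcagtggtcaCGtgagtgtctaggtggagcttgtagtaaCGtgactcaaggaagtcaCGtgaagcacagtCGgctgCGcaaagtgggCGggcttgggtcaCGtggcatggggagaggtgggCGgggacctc
Ctc1, chr11:69015661-69015910, plus strand: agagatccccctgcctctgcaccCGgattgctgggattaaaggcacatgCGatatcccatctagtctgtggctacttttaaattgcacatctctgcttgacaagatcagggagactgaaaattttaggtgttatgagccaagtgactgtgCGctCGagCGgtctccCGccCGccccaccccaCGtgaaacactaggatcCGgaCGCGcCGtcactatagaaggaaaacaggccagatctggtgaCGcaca

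The Shbg window held 4 CG pairs and the Tnk1 window 9. The windows of Ctc1 and Dvl2 held 13 each and that of Polr2a held 23. Relative to what its C and G content would give by chance, the frequency of CG was 0.20 in Shbg, 0.44 in Tnk1, 0.74 in Ctc1, 0.67 in Dvl2 and 0.93 in Polr2a. Its median was 0.61 over the 50 matched members and 0.37 over all 32851 RefSeq windows. The 3 matched lower members (Cd68, Shbg and Tnk1) ranged from 0.20 to 0.44 and the 8 matched higher members from 0.61 to 0.94, without overlap. The other 39 matched members ranged from 0.13 to 1.06. This is a description of 11 windows, chosen after the values of their genes were seen. Over all genes, log2 fold changes in the fit of both sexes rose with transcript GC (Spearman's rho = 0.20) and mean count (0.26). Any link between CpG content and the direction of change was not tested.

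Short motifs were searched on both strands of the same windows. AGATAA, bound by GATA factors, was found in the Shbg window and in 4 of 50 members (all windows 9.99%). AACAAT, bound by SRY and SOX proteins, was found in the Tnk1 window and in 3 of 50 (all windows 9.42%). AAGGTCA, bound by NR5A1, was in 0 of 50 (all windows 4.08%). The E-box CACGTG was in 7 of 50 (all windows 6.02%), among them Ctc1, Per1 and Dvl2. TATAAA was in 5 of 50 (all windows 12.4%), among them Shbg and Polr2a.

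Atp1b2 encodes a beta subunit of the sodium-potassium pump, found mainly in glia and neurons. It lies on the minus strand at 69599736 to 69605942, 186.1 kb from Kdm6b and 7.9 kb beyond Trp53. Its XY libraries read 421.4 and 524.4 normalized counts for wild type against 284.8 and 263.5 for the null, and its XX libraries 380.3 and 313.6 against 280 and 289.9. Each null library lay below each wild type library of its sex, at 58.0% of the wild type mean in XY and 82.1% in XX. The log2 fold change was -0.53 (SE 0.13) in the fit of both sexes, with adjusted p = 0.32 by limma. It was -0.78 (SE 0.15) in XY and -0.28 (SE 0.15) in XX, and the difference between the sexes was -0.50 (SE 0.21, limma adjusted p = 0.60). The authors' deposited table gave a log2 fold change of -0.79 with an adjusted p = 0.05 in XY, just outside the threshold, and -0.28 with an adjusted p = 0.72 in XX.

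Shbg encodes sex hormone-binding globulin and its transcript is known from Sertoli cells and fetal liver. It lies 8.9 kb past Atp1b2 on the same strand, at 69614804 to 69617905. It was among the least abundant members, with 19.78 and 24.92 normalized counts for XY wild type against 2.926 and 7.205 for the null. The XX libraries read 19.4 and 9.104 against 4.982 and 4.041. No null library reached any wild type library of either sex. These values rest on 45 reads against 10 in XY and 29 against 9 in XX, so the null stood at 22.4% of wild type in XY (exact 95% interval for counting error 10.1 to 45.1%) and at 31.4% in XX (13.1 to 68.2%). The log2 fold change was -1.71 (SE 0.38) in the fit of both sexes, with adjusted p = 0.26 by limma. The XX mean was below the minimum, so Shbg was not tested in XX alone.

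Tnk1, a non-receptor tyrosine kinase, lies 437.3 kb from Kdm6b. The XY libraries read 49.46 and 47.85 normalized counts for wild type against 32.19 and 33.97 for the null, and the XX libraries 41.72 and 42.48 against 23.92 and 24.25. The replicates of each group were close and all 4 null libraries were below all 4 wild type libraries. The null stood at 68.0% of wild type in XY and 57.2% in XX, with a log2 fold change of -0.66 (SE 0.17, limma adjusted p = 0.33). Tnk1 shares 1054 bases with Plscr3, a phospholipid scramblase on the opposite strand, whose log2 fold change was 0.24 (SE 0.08, limma adjusted p = 0.37). Of the lower members left, Gm25835, a snoRNA inside Eif4a1 on the same strand, had -0.54 (SE 0.24), where Eif4a1 had -0.07 (SE 0.09). All 144 bases of Gm25835 lie within Eif4a1, so its few reads may come from Eif4a1 transcripts. Cd68, a lysosomal protein of macrophages, had -0.13 (SE 0.09), with 188 and 193.4 against 184.4 and 180.1 in XY, and 212.5 and 213.4 against 196.3 and 176.8 in XX.

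Genes around Atp1b2 and Shbg were read next. Trp53, 166.7 kb from Kdm6b, read 3791 and 3473 normalized counts for XY wild type against 3529 and 3663 for the null. The XX libraries read 2674 and 3516 against 3959 and 3748. The log2 fold change of Trp53 was -0.01 (SE 0.08) in XY and 0.33 (SE 0.15) in XX, and 0.16 (SE 0.11, 95% interval -0.08 to 0.40, limma adjusted p = 0.56) in the fit of both sexes. Wrap53, which starts 104 bases from Trp53 on the opposite strand and encodes a telomerase cofactor, had 0.00 (SE 0.08). Efnb3, an ephrin that guides axons, had 0.01 (SE 0.09). Sat2, a thialysine acetyltransferase 4.1 kb past Shbg, was negative in both sexes, at -0.14 in XY and -0.24 in XX, and at -0.19 (SE 0.15) in the fit of both. Its null mean in XX was 82.6% of wild type, near the 82.1% of Atp1b2, but its libraries overlapped in both sexes. Farther out, Fxr2, an RNA-binding relative of the fragile X protein, had 0.22 (SE 0.10).

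Transcripts of p53 target genes were set beside Trp53. Of 18 targets, 10 had positive and 8 negative log2 fold changes in the fit of both sexes, with a median of 0.03 and a range of -0.59 to 0.34. None of the 18 was called by limma, and 4 had an unadjusted p under 0.05 (22.2%, all genes 12.1%). In XX the count was also 4 (22.2%, all genes 14.0%) and in XY 0 (all genes 4.96%). Mdm2, the ubiquitin ligase that p53 induces and that destroys it, had a log2 fold change of 0.02 in XY and -0.03 in XX. Cdkn1a, the p53-induced inhibitor of the cell cycle, had 0.33 in XY and -0.15 in XX. The summed level of the 18 targets lay between 9502 and 10330 normalized counts in every library.

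Lists of cell markers varied between the libraries in which Atp1b2 and Shbg were lower. The supporting lineage list (Sry, Sox9, Nr5a1, Gata4, Wt1, Amhr2 and Dmrt1) had negative log2 fold changes in 7 of 7 members in XY, with a median of -0.68. Its summed level in XY was 10250 and 11300 for wild type against 7228 and 10220 for the null. In XX 5 of 6 tested members were positive, with a median of 0.31 and sums of 6800 and 6016 against 7892 and 7741, with Sry at 0. Markers of neural crest and neurons were negative in 6 of 8 in XY (median -0.15) and 7 of 8 in XX (median -0.30), with sums of 2304 and 2471 against 2451 and 2206 in XY and 3431 and 2545 against 2673 and 2095 in XX. None of these markers was called by limma in either sex, and their part in the lower Atp1b2 and Shbg values was not tested.

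**Figure D3:**
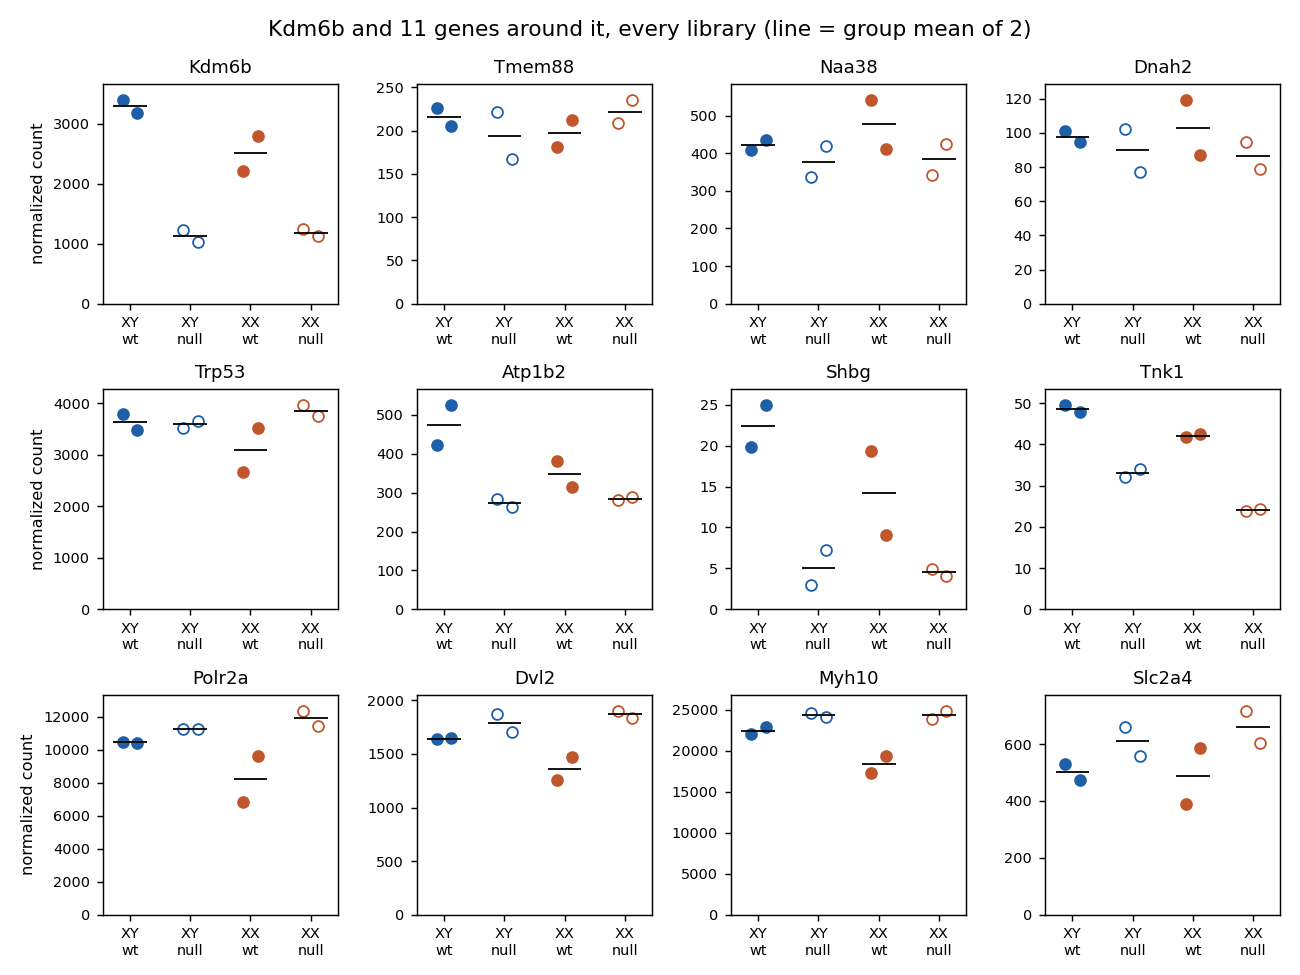
Normalized counts of Kdm6b and 11 neighbours in every library, with wild type as filled and Kdm6b-null as open points, XY in blue and XX in orange; a line marks the mean of 2 libraries and each panel has its own axis from 0. Kdm6b, Atp1b2, Shbg and Tnk1 have no null library above a wild type library of the same sex, while Polr2a, Dvl2, Myh10 and Slc2a4 have none below.

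The 10 higher members were abundant genes except for a miRNA. Except for Gps2 and the miRNA gene Gm44349, their log2 fold changes were larger in XX than in XY. Over all genes tested, those in XX rose with mean count (Spearman's rho = 0.35), and the part of abundance here was not tested. Polr2a, 320.3 kb from Kdm6b, read 10470 and 10420 normalized counts for XY wild type against 11220 and 11260 for the null. The XX libraries read 6847 and 9584 against 12340 and 11430, with the wild type pair farther apart than the null pair. Its log2 fold change was 0.33 (SE 0.13, limma adjusted p = 0.39) in the fit of both sexes, 0.11 in XY and 0.55 in XX. Dvl2, a Dishevelled protein that relays Wnt signals, read 1637 and 1645 against 1877 and 1703 in XY, and 1256 and 1468 against 1901 and 1838 in XX. The change of Dvl2 on the log2 scale was 0.29 (SE 0.09, limma adjusted p = 0.35) in the fit of both sexes, 0.12 in XY and 0.46 in XX.

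Slc2a4, which encodes the insulin-regulated glucose transporter, read 529.2 and 474.5 for wild type against 661.3 and 557.9 for the null in XY, and 388.1 and 584.7 against 716.5 and 605.1 in XX. Its log2 fold change was 0.37 (SE 0.14, limma adjusted p = 0.38). Ctc1, a component of the complex that completes telomere replication, had 0.23 (SE 0.08), with 2640 and 2579 against 2875 and 2790 in XY, and 2061 and 2538 against 2991 and 2826 in XX. Myh10, a non-muscle myosin heavy chain used in cytokinesis and the most abundant member, had 0.26 (SE 0.10). Its libraries read 22070 and 22870 against 24550 and 24100 in XY, and 17350 and 19370 against 23880 and 24860 in XX. The other higher members were Gps2, Ctdnep1, Acadvl and Pelp1, with log2 fold changes of 0.12 to 0.23, and Gm44349, a miRNA gene overlapping Elp5 on the opposite strand, with 0.76 (SE 0.33) at 6.978 to 21.22 normalized counts.

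The sexes were then taken apart. In XY 0 of 78 tested neighbours were called by limma, against 0 of 16821 genes (0.0%), and 2 had an unadjusted p under 0.05 (2.56%, all genes 4.96%), namely Atp1b2 and Shbg. In XX 0 of 78 were called, against 0 of 17028 genes (0.0%), and 13 had an unadjusted p under 0.05 (16.7%, all genes 14.0%), 10 of them higher (12.8%, all genes 9.34%). The smallest limma adjusted p was 0.54 in XY, for Atp1b2, and 0.22 in XX, for Ccdc42. The authors' deposited table called 0 of 80 neighbours in XY, against 72 of 17890 genes (0.402%). In XX it called 3 of 66 neighbours with an adjusted p (4.55%), against 407 of 14704 genes (2.77%), and all 3 were higher in the null (all genes 1.95%).

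Those 3 genes were Ccdc42, Myh10 and Fxr2. Ccdc42, needed for the sperm tail and 800.5 kb from Kdm6b, read 65.97 and 66.76 normalized counts for XX wild type against 151.5 and 163.7 for the null. In XY its libraries overlapped, at 139.5 and 161.5 against 103.4 and 205.9. Its log2 fold change by limma was 1.23 (SE 0.19, adjusted p = 0.22) in XX and -0.04 (SE 0.34) in XY, and the difference of -1.27 (SE 0.42) between the sexes had an adjusted p of 0.57. The authors' deposited table gave 1.25 with an adjusted p = 0.021 in XX. Fxr2 read 2140 and 2289 against 3068 and 3053 in XX, and 2816 and 3042 against 2828 and 2911 in XY. The XX wild type pair stood below the other 6 libraries, which were normalized in separate tables for each sex, and the log2 fold change was 0.47 (SE 0.09, limma adjusted p = 0.26) in XX. The authors' deposited table gave 0.47 with an adjusted p = 0.021 for Fxr2 and 0.41 with an adjusted p = 0.04 for Myh10.

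The XX results depended on which wild type and null libraries were used. The median log2 gap between the replicates of a neighbour was 0.23 for wild type and 0.11 for null gonads of XX embryos, and 0.13 and 0.19 for those of XY embryos. Over all genes it was 0.24, 0.13, 0.14 and 0.18. The share of mitochondrial transcripts was 3.12% for XX wild type replicate 1 and 1.90 to 2.54% elsewhere, and total counts were 19107103 to 19828638. Erythroid markers summed to 188100 and 247500 for XX wild type against 122200 and 116000 for the null. Of members with a transcript longer than the median member's 2218 bases, 29 of 40 had positive log2 fold changes in XX, against 19 of 38 of the others. Log2 fold change in XX and log2 transcript length had Spearman's rho = 0.20 over all genes tested and 0.26 over the members. The part of red cells, mitochondrial share and length in the XX values was not tested. Without XX wild type replicate 2, limma called 19 of the 78 neighbours in XX, 17 higher and 2 lower, among 3489 calls of 17028 genes. Polr2a (0.79), Trp53 (0.53) and Aurkb, a mitotic kinase (0.68), were among the higher ones, and the remaining wild type library was then assumed to vary like the null libraries. Without XX wild type replicate 1 the calls were Ccdc42 (1.23) and Fxr2 (0.42), among 370. No neighbour was called in XY or in the fit of both sexes under any alternative tried.

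Log2 fold changes of the 76 neighbours tested in both sexes had Pearson's r = -0.01 and Spearman's rho = 0.16 between XY and XX. Over 16565 genes both were 0.17. No neighbour was called for a difference between the sexes, against 0 of 17282 genes (0.0%), and 7 had an unadjusted p under 0.05 (8.75%, all genes 8.35%). That with the smallest p was Fxr2, at -0.50 (SE 0.11, limma adjusted p = 0.57).

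**Figure D4:**
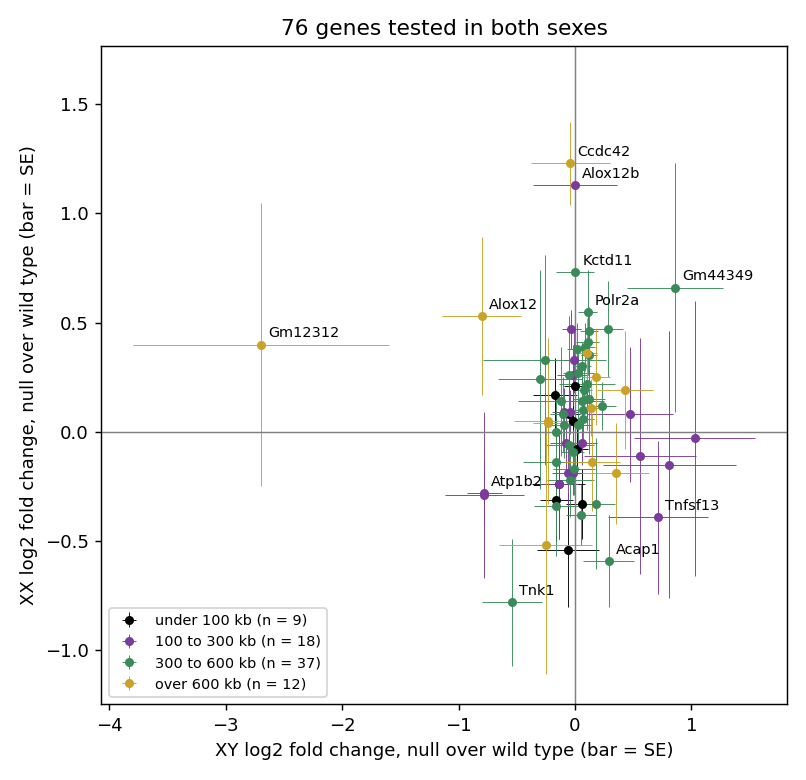
Log2 fold change of null over wild type in XX against that in XY for the 76 neighbours tested in both sexes, coloured by gap to Kdm6b, with bars of 1 SE. Points gather near 0 in XY and spread more in XX; Atp1b2 and Tnk1 lie low on both axes, and Ccdc42, Alox12b and Kctd11 lie high in XX near 0 in XY.

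Members were also counted by role, where 51.2% of all genes tested had positive log2 fold changes in the fit of both sexes, as did 8407 of 16821 genes in XY and 8533 of 17028 in XX. Of 12 transcription and chromatin genes 9 were positive in the fit of both sexes, with a median of 0.15. In XY 7 of the 12 were positive, with a median of 0.01, and in XX 10, with a median of 0.17. The 5 genes of cell division and telomeres (Aurkb, Cntrob, Ctc1, Myh10 and Ndel1) had a median of 0.11 and a range of 0.01 to 0.26 in the fit of both sexes. In XY 3 of these 5 were positive, with a median of 0.07, and in XX all 5, with a median of 0.26. Of 5 genes of translation and RNA 4 were negative, from -0.39 for Rnasek to 0.22 for Fxr2, and Eif5a had -0.01 (SE 0.11). None of these genes was called by limma in the fit of both sexes. An unadjusted p under 0.05 was reached by 1 of the 12, 2 of the 5 and 0 of the 5, where 12.1% of all genes reached it. The 5 vesicle and autophagy genes had a median of 0.03, from -0.08 (SE 0.11) for Vamp2, a synaptic vesicle fusion protein, to 0.24 for Plscr3, and 1 of them had an unadjusted p under 0.05. Per1, a circadian clock repressor, had 0.12 (SE 0.11).

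Of 7 genes of neurons and excitable membranes 4 were negative, with a median of -0.08, and Atp1b2 was the lowest. Of 10 metabolic and transport genes 6 were positive, from -1.71 for Shbg to 0.37 for Slc2a4. The lipoxygenases, enzymes that oxidise fatty acids, lie on both sides of Kdm6b, and 3 of 6 listed were measured. Alox12b lies 228.7 kb away on the lower side, and Alox12 and Alox15 lie 827.8 and 930.5 kb away on the higher side. Alox15 stood at 88.29 normalized counts for XX wild type replicate 1 and between 3.088 and 13.85 elsewhere. The same library had a summed level of 1894 for 5 adrenal and steroidogenic markers, against 366.2 to 627.1 in the others. Mc2r, on that list, did not stand out there, at 120.3 against 71.82 to 198.7 in the others. That library also stood highest for some markers of other cells. Dazl of germ cells read 467.6 there against 11.11 to 154.1 in the others, and Stmn2 of neurons 730.5 against 242.8 to 365.4. Kit and Sox10, on the same 2 lists, were not highest there. The part of any of these cells in the Alox15 value was not tested. Alox12b, used in the skin barrier, read 4.851 and 7.081 for XX wild type against 12.95 and 15.15 for the null, and had a log2 fold change of 0.00 (SE 0.36) in XY.

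The overlapping cytokine genes Tnfsf12, Tnfsf13 and Tnfsfm13 and the antisense Tnfsf13os lie 268.5 to 272.6 kb from Kdm6b and had 3.957 to 41.94 normalized counts. Their log2 fold changes were 0.47 to 1.03 in XY and -0.39 to 0.08 in XX, and none was called by limma. Since the reads of these genes may be shared, they are not independent of each other.

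Markers of the same cells were read beside the members restricted to endothelium and macrophages. Arhgef15, an endothelial exchange factor, read 554 and 639 for wild type against 662.3 and 561 for the null in XY, and 467.6 and 499.7 against 611.9 and 554.6 in XX. Bcl6b, an endothelial transcriptional repressor, had log2 fold changes of -0.23 (SE 0.13) in XY and 0.04 (SE 0.14) in XX. Endothelial markers were negative in 9 of 10 in XY (median -0.21) and positive in 10 of 10 in XX (median 0.39). Their summed level was 16500 and 21760 against 17230 and 16040 in XY, and 12870 and 14130 against 19110 and 18940 in XX. Macrophage markers were positive in 9 of 10 in XY (median 0.39) and negative in 9 of 10 in XX (median -0.27). Their sums were 2291 and 2429 against 2935 and 3170 in XY, and 3158 and 2536 against 2646 and 2267 in XX, while Cd68 had -0.06 (SE 0.14) in XY and -0.19 (SE 0.15) in XX. The part of these cells in the values of Arhgef15, Bcl6b and Cd68 was not tested.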

How the data were processed

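Per the labels' protocols, RNA was enriched for poly(A), fragmented and sequenced with 100-base paired reads from libraries that mark strand with dUTP. The tools named in the submitters' processing notes are DESeq2 2.11.40.8, featureCounts 2.0.8, STAR 2.7.11 and cutadapt 4.9, and the build is GRCm38 (mm10). Strand setting, annotation release and filters of the counting are not given. The signal deposited for each gene is a normalized count, obtained by the authors by dividing its count by a size factor of the library, with separate tables for XX and XY. The authors' deposited DESeq2 comparisons within each sex hold the log2 fold change and its error, the p-value before and after adjustment, and a Wald score that was not used. The XX comparison lacks a header, so its columns were matched to those of the XY table. All nonzero values of a library were whole multiples of 1 step, within 1e-06 of a step, which was read as 1 count for the depths and the counts of Shbg. The steps were 0.9702 to 1.0293, and no count model was run on the counts read from them.

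Tests were run with limma 3.58.1 (R 4.3.3) on log2(normalized count + 1), a scale that understates changes of low genes, with a variance trend, over all genes with a mean of at least 10 in the libraries of a sex (in either sex for the fit of both) and Benjamini-Hochberg adjustment at 0.05 over all of them. In the fit of both sexes a sex term took up any scale factor between the tables. Only within-table differences entered a test. The limma steps were tested on simulated data first. The members, lists of genes, naming rule and tests were chosen with earlier results of these data known. The rule named the 5 nearest members on each side, members called in any fit or deposited comparison, the 10 largest changes among members whose groups did not overlap, and 13 genes of known function, and neighbours that start within 1 kb of one of these. Genes of the window outside this rule that are named with values were chosen after their values were seen. They are Kcnab3, Sat2, Plscr3, Rnasek, the lipoxygenases, Kctd11, Senp3, Acap1, the Tnfsf genes, Gps2, Ctdnep1, Acadvl, Pelp1 and Gm12312. Sox15, Slc35g3 and Gucy2e are named only for their place at the edge of the filter. The gap to Kdm6b was measured between gene bodies. Alternatives were other pseudocounts (5 and 0.5), filters (none, and a mean of 50), 2 other scalings, a replicate block, a fit of all 8 libraries, no variance trend, distances between start sites, and leaving out each library.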

Additional observations from a re-analysis of the deposited data

Results flagged for a closer look

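In 3 members both null libraries lay on one side of both wild type libraries in XY and on the opposite side in XX. Limma, run on the XY effect minus the XX effect, called none of them. Acap1, a GTPase-activating protein of endosomes, read 55.4 and 58.82 normalized counts for wild type against 70.23 and 69.99 for the null in XY, and 94.11 and 91.04 against 63.78 and 58.59 in XX. The XY effect exceeded the XX effect by 0.88 (SE 0.28, limma adjusted p = 0.57). Tnfsf13, a cytokine of B cells also called APRIL, read 14.84 and 7.975 against 18.53 and 18.53 in XY, and 22.31 and 24.28 against 16.94 and 18.18 in XX. Its difference was 1.10 (SE 0.54, limma adjusted p = 0.62), and it overlaps Tnfsf13os on the opposite strand and Tnfsfm13 on its own. Senp3, a SUMO protease, read 2572 and 2563 against 2518 and 2486 in XY, and 2430 and 2678 against 2740 and 2701 in XX, with a difference of -0.13 (SE 0.11, limma adjusted p = 0.77). Such opposite pairs made up 3.75% of the members and 5.2% of all genes.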

How the results depend on the processing

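No result reversed. Among 1179 values of the named genes and counts under alternatives, 51 changed sign, all of them within 1 SE of 0 as reported. The number of genes called by limma in XY was 0 as reported, 23 with the replicate block, 1 with no variance trend and 0 to 2 when 1 library was left out. In XX it was 0 as reported, 2 with the replicate block, 10 with all 8 libraries in 1 fit, and 0 to 3489 when 1 library was left out, with 0 to 19 neighbours among them. In the fit of both sexes the 2 calls became 1 with a mean of at least 50, 0 with the replicate block and 0 to 3 when 1 library was left out. For the difference between the sexes the 0 calls became 0 to 29, all 29 without XX wild type replicate 2. The median size of change within 100 kb, 0.12, was 0.06 to 0.15 when 1 library was left out. The cause of these shifts was not tested.

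The labels do not say that replicate numbers mark a shared litter or day. Deviations of same-numbered libraries correlated at -0.0604 in XX and 0.2473 in XY over 17282 genes, and the block called no neighbour in any fit. With 2 libraries a group, members with few reads, such as Shbg, Alox15 and Gm12312, are bounded poorly: the XY libraries of Gm12312 read 24.73 and 14.95 normalized counts for wild type against 8.779 and 0 for the null, where 0 allows up to 3.09.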
